A study of Mus musculus with 9 samples.

Results

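The COUP-TF receptors and related orphan nuclear receptors are described here through 5 genes, Nr2f1, Nr2f2, Nr2f6, Nr2e1 and Nr6a1. They were chosen by their exact symbols, and all 5 were found among the 38197 symbols of the deposited count and FPKM tables. FPKM is a level scaled both by gene length and by the number of mapped fragments. The study followed hindbrain-like neural progenitors made from mouse embryonic stem cells, with 9 libraries of polyA-selected RNA read as single ends of 50 bases. Every library came from wild type cells of strain 129 grown as a monolayer, with retinoic acid (RA) and the Smoothened agonist SAG applied from 0 to 3 days in differentiation conditions (DDC). Cells were sorted for prominin-1 and collected at 4.5DDC, 5.5DDC and 6.5DDC, with 3 libraries at each. The labels give the time both as these values and as whole days, and the values with decimals are used here. No untreated or mutant culture is among these libraries, so a difference between time points cannot be told apart from time in culture. The labels do not state whether replicates were separate cultures, so the p-values measure only the spread between samples.

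Nuclear receptors are transcription factors that share a zinc finger DNA-binding domain, and an orphan receptor is one for which no natural ligand was known when it was named. Nr2f1 (COUP-TFI) and Nr2f2 (COUP-TFII) are close paralogs that often act as repressors and pattern many regions of the developing nervous system, while Nr2f6 is their more distant relative. Nr2e1 (Tlx) maintains stem cells of the forebrain and retina, and Nr6a1 (GCNF) represses pluripotency genes such as Pou5f1 as embryonic cells differentiate and shapes the trunk of the embryo.

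Total counts per library lay between 11066572 and 25506192. The replicate 1 libraries stood apart at every time point. In a principal component analysis of log2 counts scaled by library size (CPM), the second component, with 27.2% of the variance, placed replicate 1 at 23.9, 54.5 and 49.3 at 4.5DDC, 5.5DDC and 6.5DDC, and the other 6 libraries between −44.6 and −3.12. Along the first component, with 39.9%, later libraries lay above earlier ones of their own number. Each result below for a receptor gene that rests on the replicate 1 libraries is therefore also given without them where its call differs, an alternative chosen after seeing the data.

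The sorted population carried its progenitor markers. Prom1, the gene of the sorted antigen, was at 79.1 ± 14.3, 104 ± 3.72 and 183 ± 27.2 FPKM (SD, n = 3) at the 3 time points, and all 9 progenitor markers were measured and tested. Their summed level was 2199, 2555 and 2099 FPKM at 4.5DDC, 3086, 2739 and 2991 FPKM at 5.5DDC, and 3012, 2895 and 3039 FPKM at 6.5DDC. Vim, the most abundant gene, made up most of this sum, at 1235 to 2455 FPKM. From 4.5DDC to 6.5DDC 6 of the 9 had log2 fold changes above 0 and 3 below, with Sox3 among the 3. Neuronal transcripts were also present. The summed level of the 12 neuron markers in the tables was 208, 401 and 319 FPKM at 4.5DDC, 180, 467 and 485 FPKM at 5.5DDC, and 273, 626 and 683 FPKM at 6.5DDC, with Stmn2 highest by mean over all libraries, though not in 4.5DDC replicate 1 or 5.5DDC replicate 1. The replicate 1 libraries had the lowest neuron marker sum at every time point. In such bulk samples, fewer cells of a type and less RNA per cell cannot be told apart.

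The 5 receptor genes lie on 5 chromosomes of GRCm38, each on the minus strand. Nr2f1 spans chr13:78188973-78199757, Nr2f2 chr7:70351944-70366735, Nr2f6 chr8:71374123-71381960, Nr2e1 chr10:42561963-42583632 and Nr6a1 chr2:38723370-38927688. Exons of genes on the other strand overlap exons of 3 of them. The strand setting of the counting is not stated, so whether reads of such pairs were told apart in the shared bases is not known. Ocel1 covers 54.4% of the exonic bases of Nr2f6, B130024G19Rik covers 7.46% of those of Nr2f2, and A830082K12Rik covers 2.42% of those of Nr2f1. Ocel1 itself had between 5 and 11 counts in a library. The paralogs Nr2f1 and Nr2f2 share 10 stretches of 50 bases, the read length, of 5090 and 8582 such stretches in their transcripts. Reads of the COUP-TF paralogs can therefore be told apart over nearly their whole length. Nr2f6 is the receptor gene with the largest share of exonic bases overlapped from the other strand. The share of its reads that this affects was not measured.

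Nr2f1 was the most abundant of the 5 receptor genes in all 9 libraries on the FPKM scale. Its level exceeded that of Nr2f2 by 1.28-fold to 2.96-fold within a library, and the ranges of the paralogs were apart at each time point. Nr2f2 and Nr2f6 were neighbours whose ranges overlapped at 4.5DDC and 5.5DDC and lay apart at 6.5DDC, with Nr2f2 higher in 7 of 9 libraries. In FPKM Nr6a1 came next, below Nr2f6 in 8 of 9 libraries and overlapping it only at 4.5DDC among the 3 time points. In CPM, which is not scaled by length, Nr6a1 lay higher than Nr2f6. Its means at the 3 time points were 112, 65.5 and 49.5 CPM against 24.9, 20.1 and 14.8 CPM. Nr2e1 was lowest in every library. Among 49 nuclear receptor genes in the table, Nr2f1 ranked 1, 2 and 2 by mean FPKM at 4.5DDC, 5.5DDC and 6.5DDC. Over the same time points Nr2f2 ranked 5, 5 and 3, Nr2f6 ranked 6, 6 and 8, and Nr6a1 ranked 9, 10 and 12. Thra, a thyroid hormone receptor gene, held the first rank at 5.5DDC and 6.5DDC. At 5.5DDC its mean of 50.5 FPKM and the 50.2 FPKM of Nr2f1 differed by less than their spread, and at 6.5DDC the levels were 67.4 ± 19.4 against 43.6 ± 7.6 FPKM (SD, n = 3).

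**Figure D1:**
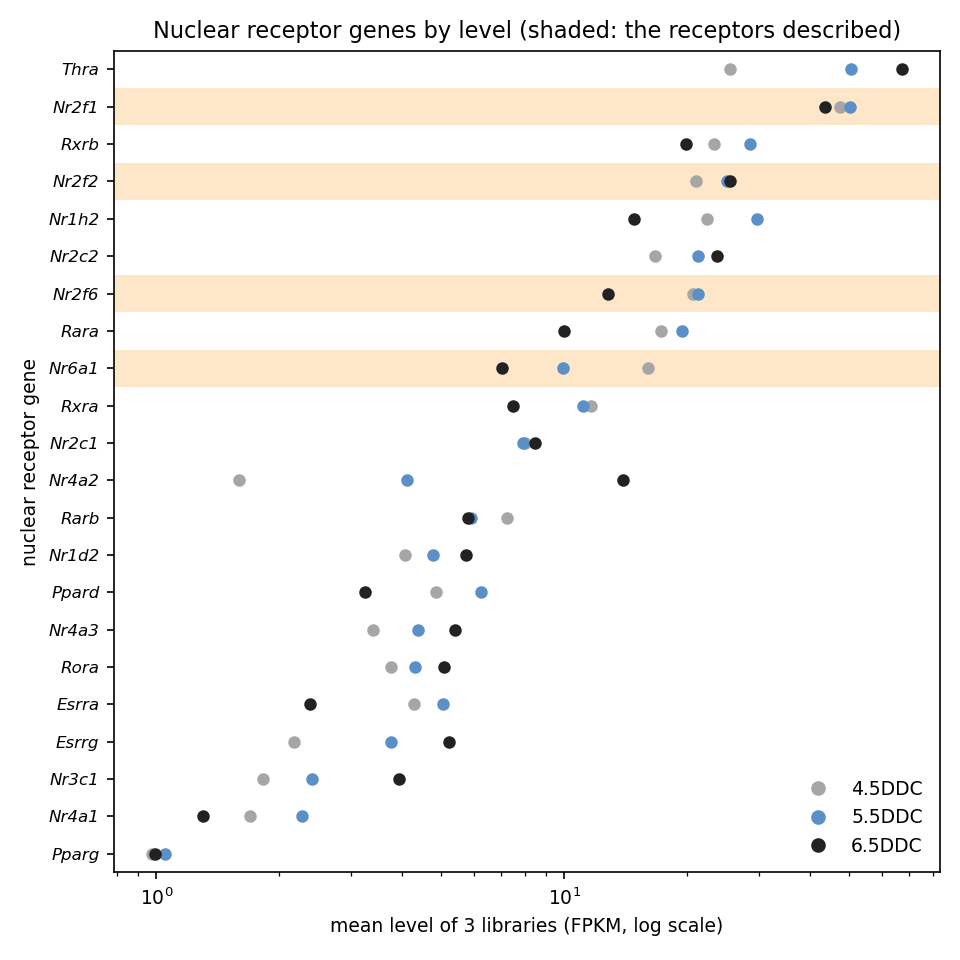
Mean level of 3 libraries in FPKM, on a log axis, of the 22 nuclear receptor genes that reached a mean of 1 FPKM over all libraries, with 1 point per time point and the receptors described here shaded. Nr2f1 lies between 43.6 and 50.2 FPKM at all 3 time points, while the points of Nr6a1 lie at 16, 9.93 and 7.03 FPKM.

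Nr2f1, which patterns the cortex and the sensory organs among other tissues, stood at 36.8, 55.9 and 49.8 FPKM in replicates 1, 2 and 3 at 4.5DDC, at 39.6, 54.4 and 56.5 FPKM at 5.5DDC and at 37.8, 40.8 and 52.2 FPKM at 6.5DDC. The ranges of all 3 time points overlapped, and replicate 1 was the lowest library each time. Between 4.5DDC and 6.5DDC, the whole span, its log2 fold change was −0.06 (SE 0.20, 95% interval −0.50 to 0.39) and the quasi-likelihood test of edgeR gave an adjusted p (Benjamini-Hochberg) of 0.863. The log2 fold change was 0.03 over the first interval and −0.09 over the second, and single libraries turned the sign of each of these 3 values. The whole span turned to 0.05, 0.0041 and 0.02 without 4.5DDC replicate 2, 4.5DDC replicate 3 and 6.5DDC replicate 1. The first interval turned to −0.13, −0.06 and −0.06 without 4.5DDC replicate 1, 5.5DDC replicate 2 and 5.5DDC replicate 3, and the second to 0.0014 without 5.5DDC replicate 3.

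Nr2f2, which is known for its part in veins, atria and many mesenchymal organs as well as in neurons, was at 25.8, 18.9 and 18.3 FPKM in replicates 1, 2 and 3 at 4.5DDC. It was at 29.6, 22 and 23.7 FPKM at 5.5DDC and at 29.5, 25 and 22 FPKM at 6.5DDC. Replicate 1 was the highest library at each time point, the reverse of its place for Nr2f1, and the time points overlapped. The log2 fold change of Nr2f2 over the whole span was 0.29 (SE 0.16, 95% interval −0.07 to 0.65), with an adjusted p of 0.23 in the same edgeR test. The difference in log2 CPM between libraries of the same replicate number was 0.19, 0.24 and 0.20 over the first interval and 0.14, 0.21 and −0.14 over the second. The log2 fold change was 0.21 over the first interval and 0.08 over the second, where it turned to −0.05 without 6.5DDC replicate 1.

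**Figure D2:**
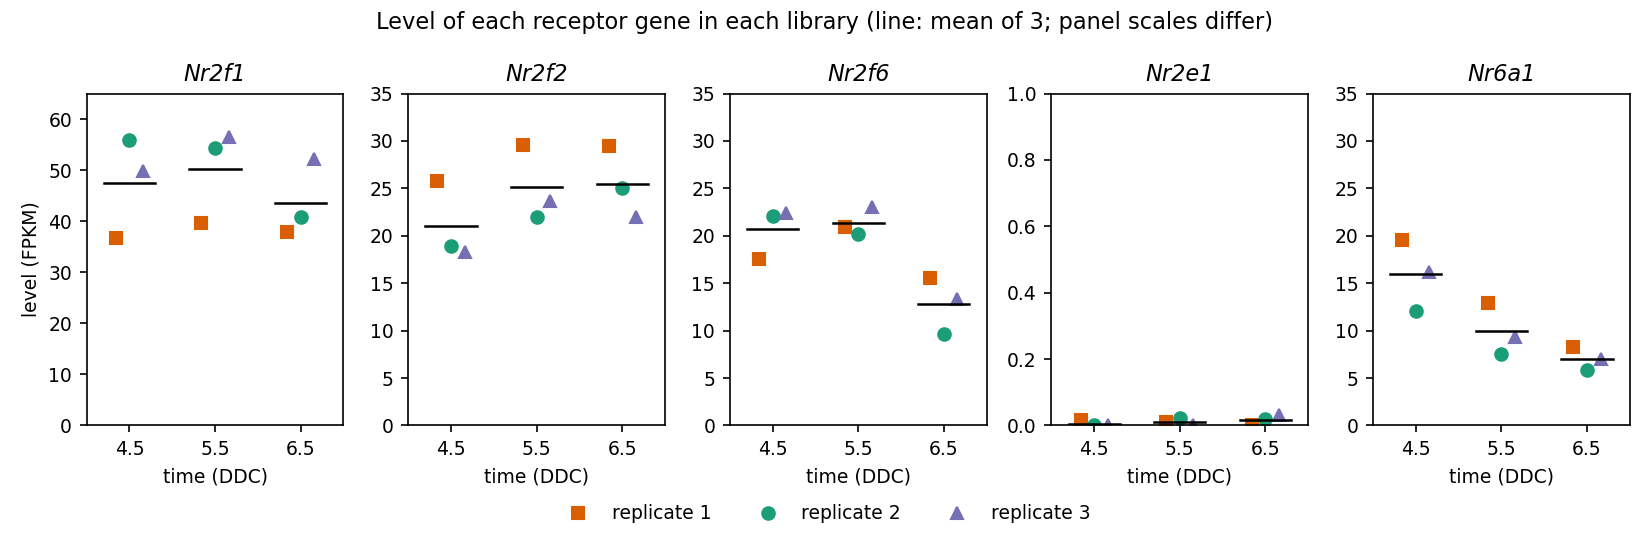
Level in FPKM of each receptor gene in each library against time in DDC, with symbols for the replicate numbers, a line at the mean of 3 libraries and a scale for each panel. Nr6a1 means were 16, 9.93 and 7.03 FPKM and Nr2f6 means 20.7, 21.3 and 12.8 FPKM, while Nr2e1 did not exceed 0.0307 FPKM.

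Because both paralogs come from the same library, their ratio does not depend on how libraries are scaled. The log2 ratio of Nr2f1 to Nr2f2 in FPKM was 0.51, 1.57 and 1.45 in replicates 1, 2 and 3 at 4.5DDC, 0.42, 1.30 and 1.25 at 5.5DDC, and 0.36, 0.70 and 1.25 at 6.5DDC. On this scale Nr2f1 was the higher paralog throughout, while in counts, which are not scaled by length, the log2 ratio in replicate 1 was 0.00 at 5.5DDC and −0.02 at 6.5DDC. In FPKM replicate 1 had the lowest ratio at each time point. The mean log2 ratio was 1.18 ± 0.58, 0.99 ± 0.50 and 0.77 ± 0.45 (SD, n = 3) at the 3 time points. Between 4.5DDC and 6.5DDC it differed by −0.41, with p = 0.3 in a two-sided exact permutation test, whose smallest possible p with 3 libraries in each group is 0.1. The difference was −0.18 over the first interval and −0.22 over the second (exact permutation p = 0.5 for each). Replicate 1 pairs adjacent time points, while the pairing of replicates 2 and 3 is not distinct. Within numbers 1, 2 and 3 the log2 ratio differed by −0.09, −0.26 and −0.19 over the first interval. Over the second it differed by −0.06, −0.60 and −0.01, and over both it was lower at the later time in all 3 numbers. The first of these differences between means turned to 0.01 without 4.5DDC replicate 2 and to 0.10 without 5.5DDC replicate 1. With single libraries left out the difference lay between −0.74 (without 4.5DDC replicate 1) and −0.20 (without 6.5DDC replicate 1) over the whole span, and between −0.51 (without 5.5DDC replicate 1) and −0.02 (without 6.5DDC replicate 1) over the second interval. At 4.5DDC and 5.5DDC replicate 1 lay farther from both other libraries than the time point means lay from each other. The part of the lower neuron marker sum in replicate 1 in this was not tested.

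**Figure D3:**
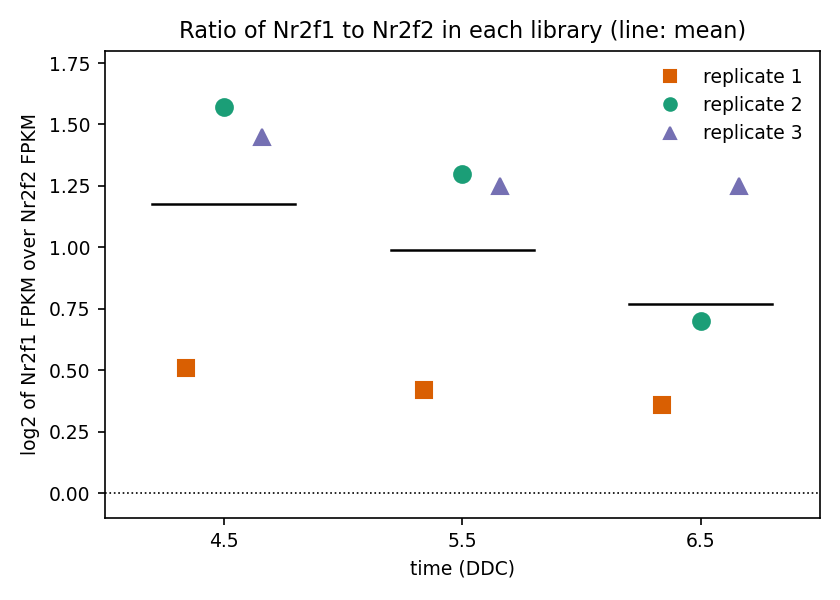
Log2 of the ratio of Nr2f1 to Nr2f2 in FPKM in each library against time in DDC, with a symbol for each replicate number and a line at the mean of 3 libraries. Replicate 1 lies lowest at each time point, at 0.51, 0.42 and 0.36, and the means are 1.18, 0.99 and 0.77.

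Nr2f6, a repressor best known from T cells, had 17.6, 22.1 and 22.4 FPKM in replicates 1, 2 and 3 at 4.5DDC, 20.9, 20.2 and 23 FPKM at 5.5DDC, and 15.5, 9.59 and 13.3 FPKM at 6.5DDC. In FPKM all 3 libraries of 6.5DDC lay below all libraries of both earlier time points, which overlapped each other. In CPM they lay below those of 4.5DDC but overlapped 5.5DDC, as 6.5DDC replicate 1 was at 18.8 and 5.5DDC replicate 2 at 15.8. The counts behind these levels were lower than those of Nr2f1 and Nr2f2, between 175 and 644 per library. The log2 fold change of Nr2f6 over the whole span was −0.76 (SE 0.25, 95% interval −1.32 to −0.19), and the adjusted p of 0.0638 from edgeR did not pass the threshold of 0.05. It passed in 7 of 21 alternatives, DESeq2 with an adjusted p of 0.0297 among them, over a range of 0.0125 to 0.2. Without the replicate 1 libraries the log2 fold change of Nr2f6 was −1.07 (adjusted p 0.0125 by the same edgeR test). Without 6.5DDC replicate 1 alone it was −0.97 (adjusted p 0.0302 by edgeR). With a replicate block it was −0.80 (adjusted p 0.0474 by edgeR), although the replicate numbers do not pair 4.5DDC with 6.5DDC.

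The counts and the FPKM of Nr2f6 did not run in parallel. Over the first interval the log2 fold change was −0.30 from counts and 0.05 from log2 FPKM, so its direction depended on the table, and over the second it was −0.45 from counts and −0.72 or −0.76 from log2 FPKM with a pseudocount of 1 or 0.1. Within replicate numbers 1, 2 and 3 log2 CPM of Nr2f6 differed by 0.20, −0.88 and −0.28 over the first interval. Over the second these differences were −0.40, −0.56 and −0.42, lower at the later time in each number. FPKM per CPM of Nr2f6 was between 0.754 and 1.28 across libraries, a 1.69-fold range, against 1.15-fold for Nr2f1, 1.22-fold for Nr2f2 and 1.34-fold for Nr6a1. Its highest values, 1.28 and 1.16, were in 5.5DDC replicates 2 and 3. The part of the overlap with Ocel1 in this was not tested.

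Nr2e1 was close to undetected. It had 1, 0 and 0 counts at 4.5DDC, 0, 1 and 0 counts at 5.5DDC and 0, 1 and 1 counts at 6.5DDC, and its FPKM did not exceed 0.0307 in any library. Its 4 counts in total fell under the filter on low counts, and no fold change is given, because every library was under a floor of 3 counts. That floor corresponds to between 0.118 and 0.271 CPM in the deepest and shallowest library and covers counting error only. A level of Nr2e1 below this floor was not detectable at this depth in these sorted hindbrain-like progenitors.

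Nr6a1 was the receptor gene with the clearest course. It was at 19.5, 12.1 and 16.2 FPKM in replicates 1, 2 and 3 at 4.5DDC, at 12.9, 7.57 and 9.33 FPKM at 5.5DDC, and at 8.25, 5.8 and 7.03 FPKM at 6.5DDC, on 613 to 2436 counts per library. All libraries of 6.5DDC lay below all libraries of 4.5DDC, while 5.5DDC overlapped both. Over the whole span Nr6a1 fell by 1.18 on the log2 scale (SE 0.27, 95% interval −1.78 to −0.59), a 2.27-fold difference, with an adjusted p (Benjamini-Hochberg) of 0.0158 in the quasi-likelihood test of edgeR. The call was lost without 6.5DDC replicate 2, where the log2 fold change was −1.07 and the adjusted p 0.0698, and it was kept in the other 20 of 21 alternatives, over a range of adjusted p from 0.000326 to 0.0698.

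Over the first interval the log2 fold change of Nr6a1 was −0.77 (SE 0.26, 95% interval −1.36 to −0.19), with an adjusted p of 0.226 by edgeR. The differences in log2 CPM within replicate numbers were −0.61, −0.69 and −1.07. With a replicate block the log2 fold change was −0.79 and the adjusted p 0.0382, and without the replicate 1 libraries they were −0.90 and 0.0392. A block that sets replicate 1 against the others, also chosen after seeing the data, gave −0.80 and 0.0174, and the adjusted p over all alternatives ran from 0.0174 to 0.506. Over the second interval the log2 fold change was −0.41 (SE 0.26, adjusted p 0.415 by edgeR), and the libraries of each number differed by −0.45, −0.37 and −0.37 in log2 CPM. This log2 fold change was −0.13 without 5.5DDC replicate 1 and −0.65 without 6.5DDC replicate 1. Nr6a1 was thus lower at the later time in every replicate number over both intervals, and the difference passed the test over the whole span.

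**Figure D4:**
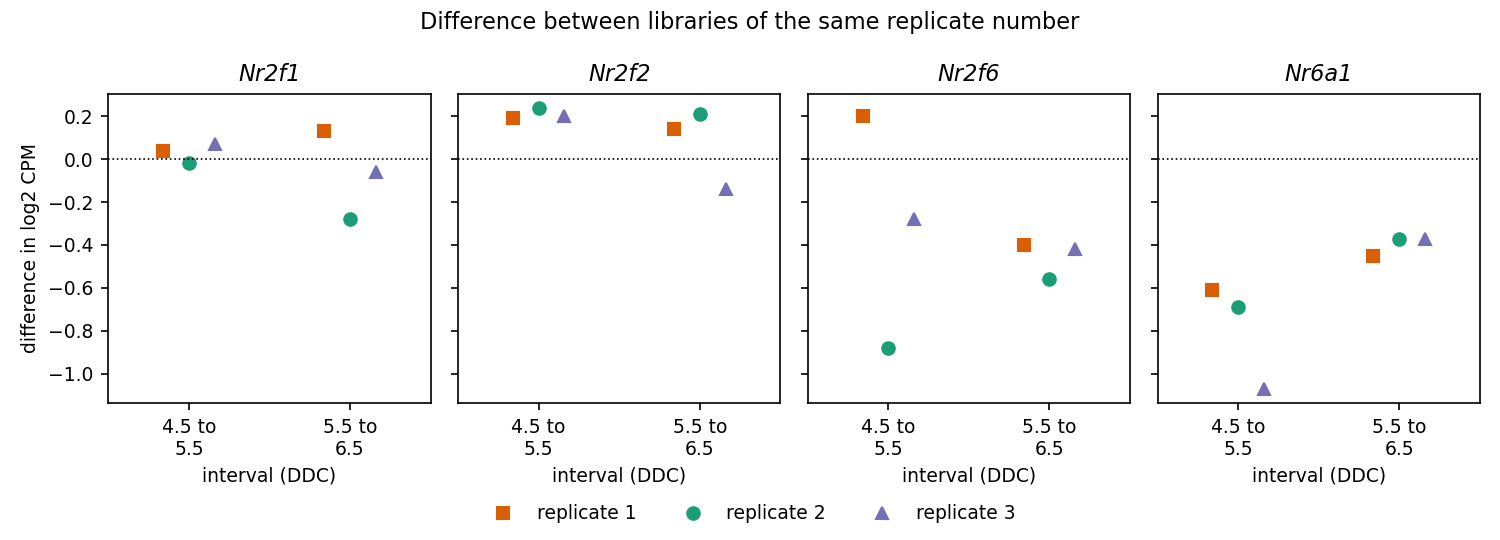
Difference in log2 CPM between libraries of the same replicate number over each interval, with a symbol for each number and a dotted line at 0. All 6 points of Nr6a1 lie below 0, from −0.37 to −1.07, while the points of Nr2f1 lie on both sides, from −0.28 to 0.13.

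The transcript of Nr6a1 carries a known feature that can be read from its sequence. Its longest annotated 3′ untranslated region in GENCODE M21 holds 4457 bases, against a median of 960 over 21039 genes, and was searched for the sites of let-7, a miRNA family that accumulates as embryonic cells differentiate. This search was chosen after the values of Nr6a1 were seen. The mature let-7a of the RefSeq table for GRCm38.p6 is shown first, with its seed, bases 2 to 8, in capitals, and 11 of 1679 mature names in that table share this seed. The 3 stretches of Nr6a1 that follow, from the transcript sequences of GENCODE M21, hold in capitals the 8 bases CTACCTCA, the match to the seed followed by an A, and lie on the minus strand at chr2:38727438-38727467, chr2:38726581-38726610 and chr2:38723674-38723703.
mmu-let-7a-5p: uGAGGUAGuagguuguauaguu
Nr6a1 site 2: gacaaagacaaCTACCTCAatggaaacagg
Nr6a1 site 4: ggggcattaaaCTACCTCAtgtttctaagg
Nr6a1 site 6: gcatcatgaacCTACCTCAggctacctccc

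These 3 are among 8 matches to the 7 bases CTACCTC in the Nr6a1 region. The same 7 bases occur in 9.02% of all 21039 such regions and in 33.8% of the 1086 that are at least as long as that of Nr6a1. Of the 21039 genes, 1 has at least 8 matches, which is Nr6a1 itself. The longest such regions of Nr2f1, Nr2f2, Nr2f6 and Nr2e1 hold 0 matches, in 760, 2713, 356 and 1401 bases. A match is a description, not a site in use or a cause, and no miRNA was measured in these polyA-selected libraries.

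Promoters were matched by symbol in the RefSeq table for GRCm38.p6, which holds 7 promoters of 300 bases, from 250 before to 50 after the start, for all 5 receptor genes. The half-site AGGTCA, the core of the elements that COUP-TFs and GCNF bind, was searched on both strands. It occurs in 16.3% of 32851 promoters. Among those of the receptor genes it occurs in the second Nr6a1 promoter, with 2 matches on the reverse strand at −91 and −45 from the start, and in no other of the 7. It also lies at −33 in the first promoter of Pou5f1, a gene that GCNF is known to repress. Both are printed 5′ to 3′ for 230 bases, ending 20 bases before the start, with the half-sites in capitals. The Nr6a1 stretch is the minus strand of chr2:38784536-38784765 and the Pou5f1 stretch the plus strand of chr17:35505782-35506011.
Nr6a1 promoter: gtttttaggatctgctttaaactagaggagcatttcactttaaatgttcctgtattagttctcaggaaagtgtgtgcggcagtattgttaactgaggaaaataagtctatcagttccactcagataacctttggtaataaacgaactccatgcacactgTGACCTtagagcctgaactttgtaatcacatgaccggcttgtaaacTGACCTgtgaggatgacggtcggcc
Pou5f1 promoter: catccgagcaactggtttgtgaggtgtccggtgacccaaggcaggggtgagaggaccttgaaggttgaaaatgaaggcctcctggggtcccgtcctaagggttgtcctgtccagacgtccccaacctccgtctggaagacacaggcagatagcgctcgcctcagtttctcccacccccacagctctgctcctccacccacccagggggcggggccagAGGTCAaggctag

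The direct repeat without a spacer that GCNF is known for, AGGTCAAGGTCA, occurs in 2 of 32851 promoters (0.00609%), and the repeat with 1 base between that COUP-TFs bind, AGGTCANAGGTCA, in 13 (0.0396%). The longer half-site TCAAGGTCA, which contains AGGTCA, occurs in 139 (0.423%). None of these 3 motifs is in the 7 promoters of the receptor genes. The absence says only that these letters are not in these windows.

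Set against all genes tested, the receptor genes show the following. Of the 5 genes, 4 passed the filter on low counts, and all shares below are of these 4 and of 14742 genes. From 4.5DDC to 5.5DDC edgeR called 0 of 4, against 0.0746% of all genes, with 1 of 4 at an unadjusted p under 0.05, as were 2275 of all genes. DESeq2 and limma voom also called 0 of 4, beside 495 and 11 of all genes. From 5.5DDC to 6.5DDC edgeR called 0 of 4, against 0.224% of all genes, with 0 of 4 at an unadjusted p under 0.05, as were 2733 of all genes. DESeq2 and limma voom called 0 of 4 there, beside 662 and 37 of all genes. From 4.5DDC to 6.5DDC edgeR called 1 of 4, Nr6a1, against 18.7% of all genes, and with 4 genes this share is not a result about the group. DESeq2 called 2 of 4 over the whole span, Nr2f6 and Nr6a1, beside 3674 of all 14742 genes. In FPKM the libraries of the time points did not overlap for 0 of 4 over the first interval, against 23.8% of all genes. Over the second they did not overlap for 1 of 4, Nr2f6, which did overlap in CPM, against 24%, and over the whole span for 2 of 4, Nr2f6 and Nr6a1, against 34.5%. The median log2 fold change of the 4 over the whole span was −0.41, beside 0.00 over all genes.

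**Figure D5:**
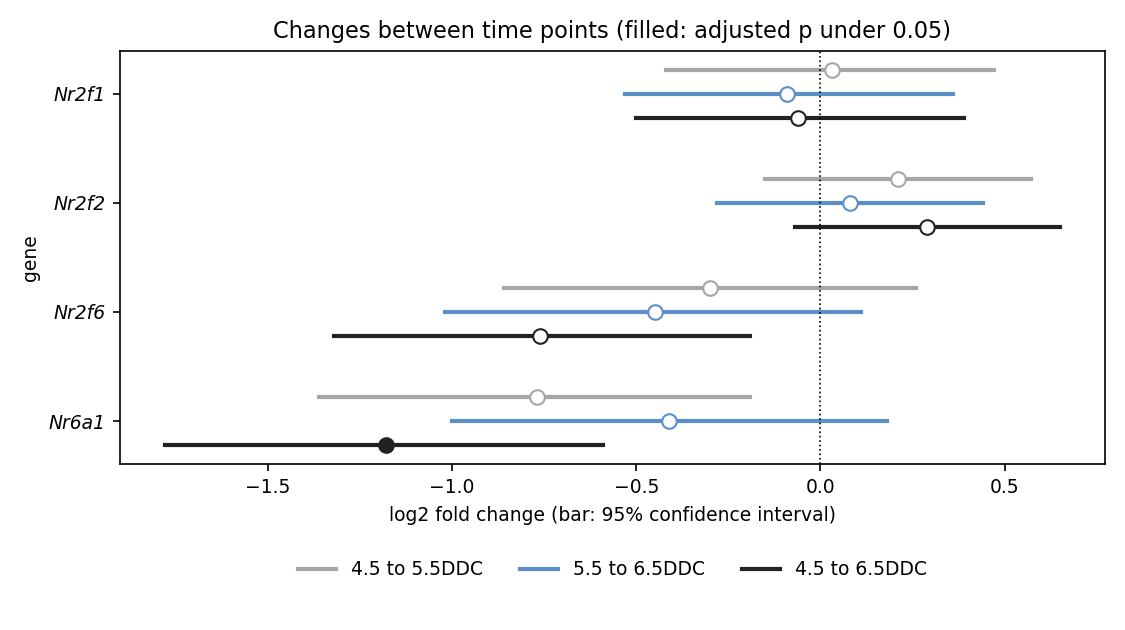
Log2 fold change of the 4 tested receptor genes between pairs of time points, with bars for the 95% confidence interval and filled points for an adjusted p under 0.05 by edgeR. The filled point is Nr6a1 from 4.5DDC to 6.5DDC at −1.18, and the interval of Nr2f6 for the same span, −1.32 to −0.19, also lies below 0.

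Whether a receptor gene changed by different amounts over the 2 intervals was tested directly. The change over the second interval minus that over the first was 0.36 for Nr6a1 (95% interval −0.66 to 1.38), −0.15 for Nr2f6 (−1.12 to 0.82), −0.13 for Nr2f2 (−0.75 to 0.49) and −0.11 for Nr2f1 (−0.88 to 0.66), all in log2. For Nr6a1 it was 0.93 without 5.5DDC replicate 1 and 0.10 without 5.5DDC replicate 2. For Nr2f6 it was −0.77 or −0.81 from log2 FPKM with a pseudocount of 1 or 0.1. Without 5.5DDC replicate 1 the values of Nr2f6 and Nr2f2 turned to 0.21 and 0.05, and that of Nr2f6 turned to 0.04 without 6.5DDC replicate 2. For Nr2f1 it turned to 0.05, 0.05 and 0.06 without 4.5DDC replicate 1, 5.5DDC replicate 2 and 5.5DDC replicate 3. By edgeR's test of this difference the adjusted p lay between 0.853 and 0.943. That test called 0 of 14742 genes, 0%, with 701 at an unadjusted p under 0.05, and DESeq2 and limma voom called 0 as well. The intervals are wide, so a slower or faster loss of Nr6a1 in either interval was not detectable with 3 libraries per time point.

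Most of the partners through which these receptors act were measured. Of 17 cofactor genes known to act with COUP-TFs or Tlx, 16 were in the tables and tested, and Zfpm1 was not in the tables. Their summed level was 698, 696 and 766 FPKM at 4.5DDC, 681, 730 and 735 FPKM at 5.5DDC, and 667, 736 and 709 FPKM at 6.5DDC, with the histone deacetylase gene Hdac2 as the most abundant. By edgeR's test 3 of 16 rose over the whole span and none fell, beside 18.7% of all genes called, the share that also stands beside the counts of the other lists below. These were Ncoa1, a coactivator, with a log2 fold change of 0.68 (SE 0.18), Bcl11b, which encodes a partner of COUP-TFs, with 1.58 (SE 0.47), and Zfpm2, with 2.62 (SE 0.81) at a level below 1 FPKM. All 3 calls were fragile, and were lost in 7, 10 and 12 alternatives. Without 4.5DDC replicates 2 or 3, 5.5DDC replicate 2 or 6.5DDC replicates 2 or 3, each left out alone, all 3 were lost. Those of Bcl11b and Zfpm2 were also lost without 4.5DDC replicate 1 or 5.5DDC replicate 3. Without 6.5DDC replicate 2 the log2 fold changes were 0.65, 1.34 and 2.46, with an adjusted p of 0.0937, 0.144 and 0.134 by edgeR, over ranges of 0.00651 to 0.0944, 0.00151 to 0.144 and 0.000974 to 0.134, and Zfpm2 was at 2.03 without 4.5DDC replicate 1. The median over the 16 was −0.06, beside 0.00 over all genes. The alternatives called between 1125 and 4586 of all genes over the whole span, which stands beside the ranges given for the lists below.

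Of 5 genes known as targets of COUP-TFs, 4 were tested. Over the whole span 2 of 4 rose, the semaphorin receptor genes Nrp1 and Nrp2, with a median over the list of 0.31 beside 0.00 over all genes, and the other 2 had values below 0. Pax6, at −1.85 (SE 0.60, adjusted p 0.0575 by edgeR), was called lower in 5 of 21 alternatives, among them DESeq2 and those without 4.5DDC replicate 1 or 6.5DDC replicate 1. Notch1, at −0.63 (SE 0.28), was called lower in 1, without 6.5DDC replicate 3, and between 1 and 3 of the 4 were called over the alternatives. Nrp2 was at 21.4, 21.8 and 21.1 FPKM at 4.5DDC, 52.2, 71.6 and 71.6 FPKM at 5.5DDC, and 117, 108 and 100 FPKM at 6.5DDC, with no overlap between time points. Its log2 fold change was 2.34 over the whole span (SE 0.17, adjusted p 0.000246 by edgeR) and 1.55 over the first interval (adjusted p 0.0114). The first-interval call was lost in 4 of 21 alternatives, among them those without 4.5DDC replicate 2, 4.5DDC replicate 3 or 5.5DDC replicate 3, where the adjusted p was 0.0934, 0.0592 and 0.0697, over a range of 5.38e-15 to 0.0934. Nrp1 rose by 1.25 on the log2 scale (SE 0.27) over the whole span, a call lost without 4.5DDC replicate 2 with an adjusted p of 0.0513, over a range of 0.000134 to 0.0513. The summed level of the 5 targets was 74.5, 75.7 and 74.2 FPKM at 4.5DDC, 131, 136 and 145 FPKM at 5.5DDC, and 201, 170 and 177 FPKM at 6.5DDC. Neither Nr2f1 nor Nr2f2 passed the test over these intervals.

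Genes known as targets of Nr6a1 were at low levels throughout, with Gdf9 at 11 to 31 counts in a library and the others at 5 or fewer. All 7 had a mean under 1 FPKM, Prm1 and Prm2 were at 0 in every library, and Pou5f1 had at most 2 counts in a library. Their summed level was 0.44, 0.681 and 1.55 FPKM at 4.5DDC, 1.46, 1.26 and 0.728 FPKM at 5.5DDC, and 0.881, 1.02 and 1.61 FPKM at 6.5DDC, with Gdf9 highest by mean. Gdf9 was the 1 gene of 7 that could be tested, and its log2 fold change of 0.30 over the whole span had an adjusted p of 0.604 by edgeR. Nr6a1 fell over a span in which its listed targets other than Gdf9 had at most 5 counts in a library.

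Of 7 genes known as targets of Nr2e1, 5 were tested, with Cdkn1a, a cell cycle inhibitor gene, as the most abundant at a mean of 40.5, 46.2 and 36.8 FPKM at the 3 time points. The summed level was 87.8, 101 and 96.7 FPKM at 4.5DDC, 94.1, 99.5 and 110 FPKM at 5.5DDC, and 81.6, 106 and 95.8 FPKM at 6.5DDC. Aqp4, a water channel gene of astrocytes, was the 1 gene of 5 that rose over the whole span, with a log2 fold change of 1.53 (SE 0.44, adjusted p 0.0385 by edgeR). This call was lost in 10 of 21 alternatives, among them those without 4.5DDC replicates 2 or 3, 5.5DDC replicates 2 or 3 and 6.5DDC replicates 1 or 2, each alone. Their log2 fold changes were 1.28, 1.44, 1.53, 1.53, 0.97 and 1.69, and the adjusted p by edgeR reached 0.131, over a range of 0.00125 to 0.131. The median over the 5 was −0.12, beside 0.00 over all genes. These genes were measured at a time when Nr2e1 itself was under the floor.

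Among the 44 other nuclear receptor genes, 27 were tested and 6 rose over the whole span by edgeR's test, while none fell, and between 4 and 10 were called over the alternatives. Among those that rose were Thra with a log2 fold change of 1.27, Rora with 1.32, Nr2c2 with 0.56, Nr3c1 with 1.30 and Nr4a2 with 2.96. The calls of Nr2c2 and Rora were lost without 6.5DDC replicate 2, with an adjusted p of 0.167 and 0.0686 by edgeR, and over all alternatives their adjusted p ran from 0.0167 to 0.167 and from 0.000563 to 0.284. That of Nr2c2 was also lost without 4.5DDC replicates 1 or 2, 5.5DDC replicates 2 or 3 or 6.5DDC replicate 3, each alone, at log2 fold changes of 0.53, 0.47, 0.56, 0.56 and 0.58. The median over the 27 was −0.01, beside 0.00 over all genes. Rora was at 0.36 or 0.44 on log2 FPKM with a pseudocount of 1 or 0.1, where it was not called. By edgeR's test with all libraries, Nr6a1 was the 1 nuclear receptor gene called lower over the whole span, while Nr2f6 was also called lower in 7 of 21 alternatives. Rxra was called lower in 3, with a replicate block, with a block for replicate 1 against the others and without 6.5DDC replicate 3, and Rara in 1, without 6.5DDC replicate 3. These counts do not test whether Nr6a1 differs from the others. The retinoid receptor genes Rara and Rxrb, which share dimer partners and half-sites with the COUP-TFs, had means of 17.3, 19.4 and 10 FPKM and of 23.3, 28.6 and 19.9 FPKM at the 3 time points. Their summed level with the rest of the 44 was 173, 185 and 138 FPKM at 4.5DDC, 222, 215 and 216 FPKM at 5.5DDC, and 150, 213 and 270 FPKM at 6.5DDC.

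The fall of Nr6a1 ran alongside other changes in these libraries. Of 10 glial competence genes 8 were tested and 6 rose over the whole span, with a median log2 fold change of 1.63 beside 0.00 over all genes. They were Slc1a3 with 1.74, Nfia with 1.96, Nfib with 2.18, Aldh1l1 with 2.06, Zbtb20 with 0.97 and Aqp4, and the summed level was 33.2, 27.5 and 27.2 FPKM at 4.5DDC, 63.6, 52.3 and 54.3 FPKM at 5.5DDC, and 84, 93.7 and 98.9 FPKM at 6.5DDC, with Slc1a3 highest by mean. Of 12 neuron markers tested, 5 rose and 1 fell over the whole span, with a median log2 fold change of 1.33 beside 0.00 over all genes and 10 of 12 values above 0. Over the alternatives between 4 and 10 were called, with 10 without the replicate 1 libraries, where 4586 of 14638 genes were called. Map2 rose by 1.65, Gata2 by 1.83, Gata3 by 2.46 and Tph2 by 2.95, Fev went from 0.0442 to 1.7 FPKM, and the motor neuron gene Isl1 fell by 2.44 on the log2 scale. Tubb3 was not in the tables. Of the 9 progenitor markers Prom1 rose by 1.19, and Sox3 fell from 8.29 to 2.38 FPKM. Between 1 and 4 of the 9 were called over the alternatives, where Hes5 was called lower in 5, among them DESeq2 and those without 4.5DDC replicate 1 or 4.5DDC replicate 3, and Fabp7 higher in 3, among them a replicate block and without the replicate 1 libraries. Single libraries ended some of these calls. Sox3 was not called without 4.5DDC replicate 2, 6.5DDC replicate 1 or 6.5DDC replicate 2, at log2 fold changes of −1.19, −1.76 and −1.55, nor Zbtb20 without 4.5DDC replicate 2, 6.5DDC replicate 2 or 6.5DDC replicate 3, at 0.84, 0.84 and 0.88. Gata3 was not called without 4.5DDC replicate 3 or 6.5DDC replicate 2, at 2.42 and 2.37, nor Tph2 without 4.5DDC replicate 2, at 2.87, and Tph2 was at 2.26 without 6.5DDC replicate 1.

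The neuron marker sum was lowest in replicate 1 at each time point, where Nr6a1 and Nr2f2 were highest and Nr2f1 lowest. The part of these cell types in the levels of the receptor genes was not tested.

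Nr2f2 is also a gene of veins and mesenchyme, and the markers of those and other cell types were at the following levels. The summed level of 4 endothelial markers was 1.21, 3.9 and 4.07 FPKM at 4.5DDC, 1.57, 5.84 and 5.22 FPKM at 5.5DDC, and 8.69, 5.97 and 5.3 FPKM at 6.5DDC, with Cdh5 highest by mean, and Kdr, with a log2 fold change of 1.76, was the 1 of 4 that rose. The 9 markers of mesenchyme and neural crest summed to 53.4, 85.2 and 34.6 FPKM, 56.6, 36.9 and 35.1 FPKM, and 53.1, 62 and 72 FPKM at the 3 time points. Acta2 had the highest mean, and Twist1, with 0.74, was the 1 of 7 tested that rose by edgeR's test, while Sox10 had at most 2 counts in a library. The median log2 fold change of the 7 was 1.26 beside 0.00 over all genes, and 6 of 7 were above 0. The alternatives called 0 to 5 of the 7. With a replicate block 4 were called, beside 3418 of 14742 genes, and with a block for replicate 1 against the others 5, beside 4382. Without the replicate 1 libraries 3 were called, beside 4586 of 14638 genes. Of these 3, Col1a2 and Col3a1 were called higher and Acta2 lower. The call of Twist1 was lost in 8 of 21 alternatives, among them those without 4.5DDC replicates 1, 2 or 3, 5.5DDC replicate 2 and 6.5DDC replicates 1 or 2, each alone, at log2 fold changes of 0.69, 0.78, 0.75, 0.74, 0.65 and 0.75, and without the replicate 1 libraries, at 0.59. All 6 pluripotency markers had a mean under 1 FPKM and summed to 1.74, 1.14 and 1.69 FPKM, 1.21, 1.37 and 1.04 FPKM, and 2.28, 1.33 and 0.393 FPKM, with Dppa5a highest by mean. All 5 endoderm markers also had a mean under 1 FPKM, and summed to 0.912, 0.397 and 0.419 FPKM, 1.3, 0.407 and 0.727 FPKM, and 5.43, 0.565 and 0.403 FPKM, with Ttr highest by mean. For these last lists 1 gene each passed the filter, and neither was called over the whole span by edgeR's test without a block. Sox17, the endoderm gene tested, had a log2 fold change of 1.49 and was called higher in 2 of 19 alternatives. These were a replicate block and a block for replicate 1 against the others. The part of these cell types in the level of Nr2f2 was not tested.

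The genes whose pattern was most like that of each receptor gene were taken by Pearson correlation in log2 CPM over the 9 libraries among 11996 genes that passed the filter and reached a mean of 2 FPKM. The points share their libraries and the offset of replicate 1, so these values are descriptions. Nr6a1 was most like Phf17 (r = 0.985), Epha4 (0.985) and Ltbp1 (0.983), which had means of 14, 9.64 and 7.58 FPKM, 24.2, 17 and 12.1 FPKM, and 16.1, 10.2 and 6.73 FPKM at the 3 time points. Nr2f1 was most like Nxn (0.974) and Paqr4 (0.947). Nr2f2 was most like Stox1 (0.972), Pkp4 (0.971) and Zc3hav1 (0.968), and Nr2f6 like Gm11470 (0.971), Ppp4c (0.96) and Prmt7 (0.956). No gene named here was among the most similar of more than 1 receptor gene.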

How the data were processed

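RNA from cells sorted for prominin-1 was measured in 9 libraries, 3 at each time point. The authors mapped reads to GRCm38 with TopHat 2.0.4 and deposited counts per gene from htseq-count 0.6.1, not normalized; for 98 of 38197 symbols these deposited values are not whole, as in estimated or expected counts, and were rounded. The authors computed FPKM with Cufflinks 2.1.1, used here as levels. The authors also deposited log2 values from limma voom, which were not tested.

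Genes passing filterByExpr (14742) were scaled by TMM (factors 0.951 to 1.03) and fitted with edgeR 4.0.16 in R 4.3.3 by its quasi-likelihood test with Benjamini-Hochberg adjustment at 0.05, with time point as the factor. Ratios of paralogs were compared with exact permutation tests. Alternatives used limma 3.58.1, DESeq2 1.42.0, other scalings and filters, log2 FPKM with pseudocounts of 1 and 0.1, only the 6 libraries compared, a replicate block, each library left out and 2 settings added after seeing the data. Fits were tested on simulated data. Tables and plots used Python 3.11.15. Named are the 5 receptor genes, most genes of fixed lists that were called, some only in an alternative, or most abundant, and 2 or 3 of the most similar genes of each. The members and lists were chosen with earlier results of these data known.

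Replicate numbers come from the labels, which do not say what they share. Their deviations from the time point mean were correlated across genes. Libraries of one number correlated at 0.743, 0.386 and 0.452 between 4.5DDC and 5.5DDC, and between 5.5DDC and 6.5DDC at 0.454, 0.367 and 0.197, so replicate 1 pairs adjacent time points. Replicates 2 and 3 also correlated with each other, at 0.291 and 0.39 over the first interval and 0.225 and 0.405 over the second, so their own pairing is not distinct. Between 4.5DDC and 6.5DDC the values were 0.383, −0.0396 and −0.215, so the numbers do not pair the whole span.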

Additional observations from a re-analysis of the deposited data

How the results depend on the processing

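The log2 fold change of Nr6a1 from 4.5DDC to 6.5DDC lay between −1.43 and −1.03 with single libraries left out, and without 6.5DDC replicate 2 it was −1.07 and no longer called. Over the first interval it was called with a replicate block (−0.79), with a block for replicate 1 against the others (−0.80) and without replicate 1 of all time points (−0.90). Nr2f6 over the whole span was called with a replicate block (−0.80), with the block for replicate 1 (−0.79), without replicate 1 of all time points (−1.07), by DESeq2 (−0.75), on log2 FPKM with a pseudocount of 1 (−0.67) or 0.1 (−0.71) and without 6.5DDC replicate 1 (−0.97), and lay between −0.97 and −0.57 with single libraries left out. Over the first interval Nr2f6 turned to 0.05 with either pseudocount, was −0.58 without replicate 1 of all time points and lay between −0.49 and −0.16 with single libraries left out, and over the second these gave −0.67 to −0.27. Its difference between intervals turned to 0.10 without replicate 1 of all time points, was −0.77 and −0.81 on log2 FPKM with a pseudocount of 1 and 0.1, and ran from −0.44 to 0.21 with single libraries left out. Leaving out single libraries gave Nr2f1 values of −0.13 to 0.18, −0.24 to 0.0014 and −0.22 to 0.05 over the first interval, the second and the whole span, and −0.43 to 0.06 for the difference. For Nr2f2 they were 0.12 to 0.31, −0.05 to 0.20 and 0.16 to 0.41, and −0.27 to 0.05 for the difference, and for the log2 ratio of Nr2f1 to Nr2f2 −0.51 to 0.10 over the first interval. From counts this ratio differed by −0.18, −0.14 and −0.33 over the first interval, the second and the whole span. The count of genes called over the first interval, 11, was 495 by DESeq2, 212 with a replicate block, 484 with the block for replicate 1, 485 without replicate 1 of all time points, 25 without a filter, 7 on log2 FPKM with a pseudocount of 1, 1 on the 6 libraries compared, and 1 to 28 with single libraries left out. Over the second, 33 became 662 by DESeq2, 195 with a replicate block, 634 with the block for replicate 1, 728 without replicate 1 of all time points, 78 without a filter, 55 by library totals and 12 with a pseudocount of 1. It became 0 by limma with a pseudocount of 0.1 and 0 by edgeR on the 6 libraries (2520 and 2609 at an unadjusted p under 0.05), and 0 to 196 with single libraries left out, with 0 by edgeR without 5.5DDC replicate 2 or 3 or 6.5DDC replicate 2 or 3 (1992, 1991, 1340 and 3302 at an unadjusted p under 0.05). Over the whole span, 2763 became 4382 with the block for replicate 1, 4586 without replicate 1 of all time points, and 1125 to 3132 with single libraries left out. The replicate block changed no other call of a receptor gene, and its numbers do not pair the whole span. The settings named for replicate 1 were chosen after seeing the data, and the cause was not tested. Of 585 values for the genes of the lists that edgeR called without a block, 0 turned direction and 78 lost the call. Genes called only in an alternative were not among these values. Of 743 counts of called genes in lists, 90 differed by over 1.5 times.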

Other observations

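The receptor genes together made up between 0.0122% and 0.0165% of the summed FPKM of a library. Their summed level was 99.6, 109 and 107 FPKM at 4.5DDC, 103, 104 and 113 FPKM at 5.5DDC, and 91.1, 81.3 and 94.6 FPKM at 6.5DDC. A830082K12Rik, on the other strand of Nr2f1, was at 7.15 to 15.6 FPKM, and B130024G19Rik, on the other strand of Nr2f2, at 0 to 3.1 FPKM.

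With 3 libraries per time point, 1 standing apart, changes smaller than the intervals given were not detectable. Cells were sorted for prominin-1 alone, and bulk RNA does not show which cells carried the neuronal transcripts. Transcript levels say nothing of protein or of the binding of these receptors, and single reads of 50 bases do not separate their isoforms. How reads shared by Nr2f6 and Ocel1 were assigned is not stated, and its effect on Nr2f6 was not tested.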
